A study of Arabidopsis thaliana with 16 samples.

Results

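The genes described here are 10 of the 33560 genes in the matrix, listed by their locus codes. They belong to enzyme families of Arabidopsis thaliana with members that make or remove phosphatidylinositol 4-phosphate (PI4P). They are 7 kinases of the phosphatidylinositol 4-kinase (PI4K) families and 3 phosphatases of the SAC family. The kinases are PI4K alpha1 (AT1G49340), PI4K beta1 (AT5G64070), PI4K beta2 (AT5G09350), and the gamma-type AT5G24240, PI4K gamma4 (AT2G46500), AT1G26270 and PI4K gamma7 (AT2G03890). Whether the gamma-type genes make PI4P was not measured. The phosphatases are SAC6 (AT5G66020), SAC7 (AT3G51460), also called RHD4, and SAC8 (AT3G51830). The list was chosen by the FPKM of AT5G24240, which is low in all mutant genotypes, together with family membership, so every value against wild type below is a description of the members and not a test.

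Messenger RNA of whole roots of 5-day-old Col-0 seedlings was measured in 16 libraries of 4 genotypes, 4 libraries each, as FPKM, a unit in which fragments are divided by gene length and library size. The genotypes are plants carrying both mctp3-2 and mctp4-1 (double), the mctp4-1 mutant (line Salk_089046C), the mctp3-2 mutant (line GABI_285E06), and wild type (WT). Each mutated gene is represented by 1 insertion allele, and the double carries the same alleles as the single mutants. MCTP3 and MCTP4 are proteins of plasmodesmata, the channels that join plant cells, where they hold endoplasmic reticulum and plasma membrane close together.

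PI4P is made from phosphatidylinositol by PI4Ks and is the most abundant phosphoinositide of plant cells. At the plasma membrane it gives the inner face its strong negative charge, and at the trans-Golgi network it marks membranes for secretion. It is turned over by SAC phosphatases, by PI4P 5-kinases, which add a further phosphate, and by phospholipases C, which cleave the head group. Root hairs, whose tips depend on directed secretion, are the root cells in which these enzymes have been studied most.

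The libraries summed to between 887430 and 1016221 FPKM, and their log2 values correlated at 0.981 to 0.995 across genes. Read counts were not used, and depth was only estimated from low FPKM values relative to 1 WT library, at 0.883 to 1.65 times it. The MCTP4 transcript averaged 3.08 ± 0.166 FPKM in double, 4.33 ± 1.29 FPKM in mctp4-1 and 28.6 ± 1.50 FPKM in mctp3-2, against 26.4 ± 3.42 FPKM in WT (SD, n = 4 each). The MCTP3 transcript averaged 13.8 ± 0.847 FPKM in double, 6.68 ± 1.10 FPKM in mctp4-1 and 13.8 ± 1.78 FPKM in mctp3-2, against 6.39 ± 0.236 FPKM in WT, so in the libraries labelled mctp3-2 and double it was higher and not lower. All 5 root hair markers (COBL9, EXPA7, EXPA18, RSL4 and RHD2) and all 5 markers of endodermis and stele reached 1 FPKM in every genotype, as did 4 of 4 markers of green tissue. Pollen markers summed to at most 0.420 FPKM in any library, and PIP5K11 was at 0 in all of them. In every genotype, replicates 3 and 4 formed a set apart from replicates 1 and 2, and what the replicate numbers stand for is not given in the labels. The labels do not say that the libraries came from separate cultures, and a p-value therefore speaks only of the spread from library to library, part of which may be technical.

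AT5G24240 was the member that separated the mutants from WT. Its annotation reads phosphatidylinositol 4-kinase gamma-like protein, and it lies on chromosome 5 from 8230916 to 8234150 on the minus strand (TAIR10.1), with 2 annotated transcripts of 3 exons. In the double it had 2.08, 2.34, 1.23 and 1.89 FPKM in replicates 1 to 4. In mctp4-1 it had 2.48, 2.73, 1.71 and 1.62 FPKM, and in mctp3-2 it had 2.20, 2.46, 1.50 and 2.03 FPKM. In WT it had 33.1, 40.9, 33.6 and 41.7 FPKM. The 12 mutant libraries lay between 1.23 and 2.73 FPKM, and no WT library came below 33.1 FPKM.

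**Figure D1:**
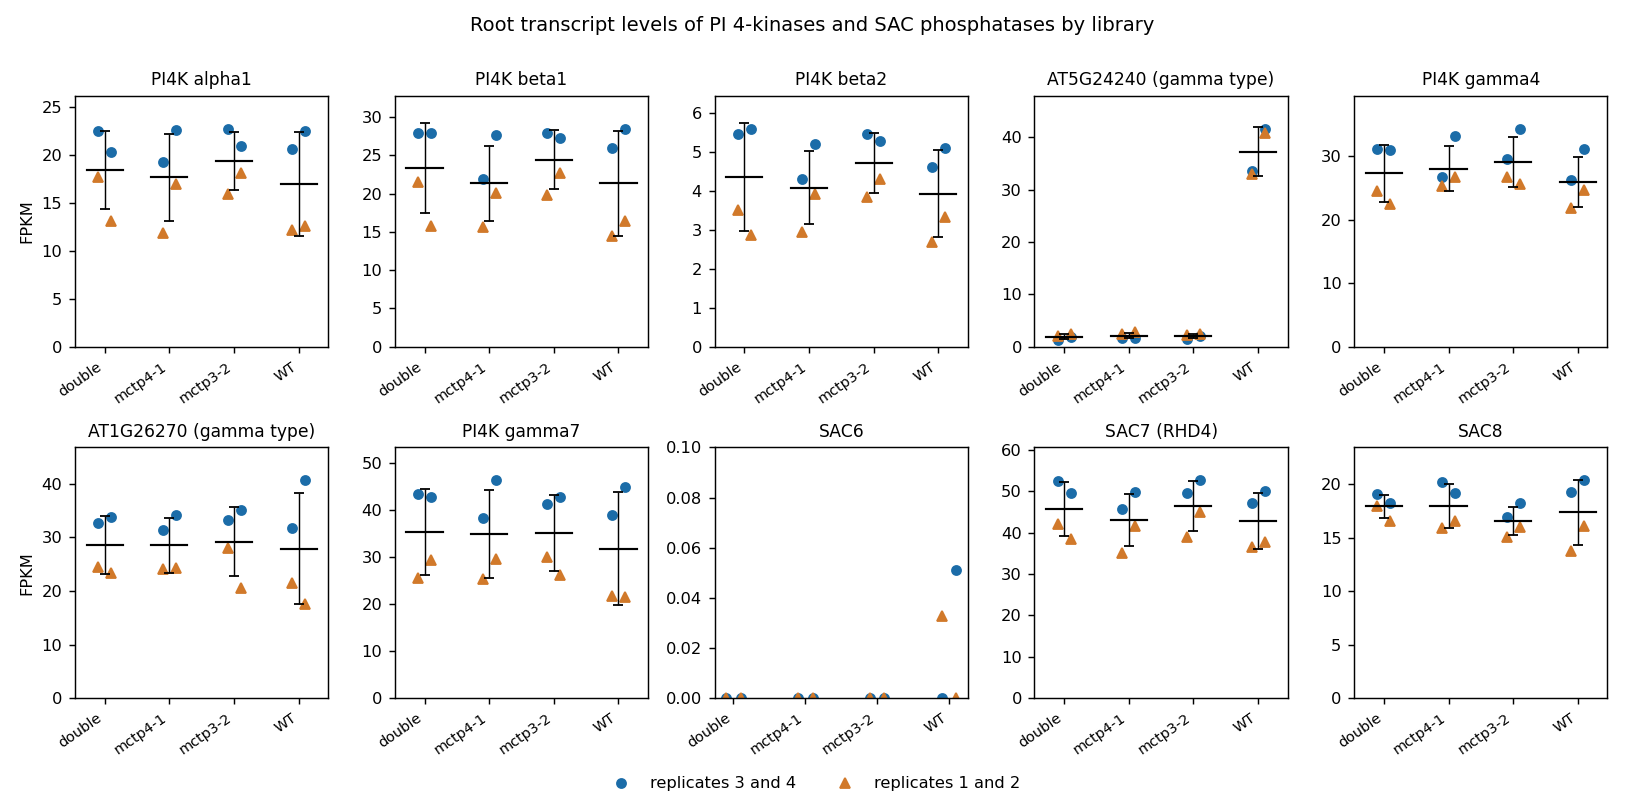
FPKM (vertical axes, from 0) of the 10 members in each library by genotype, with circles for replicates 3 and 4, triangles for replicates 1 and 2, and the mean ± SD of 4 libraries as black lines (left out for SAC6, which is at 0 in 14 libraries). AT5G24240 sits at 1.23 to 2.73 FPKM in mutants and at 33.1 to 41.7 FPKM in WT, while for the other tested members the circles lie above the triangles within each genotype.

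The mean of AT5G24240 was 1.89 ± 0.476 FPKM in double, 2.14 ± 0.556 FPKM in mctp4-1 and 2.05 ± 0.406 FPKM in mctp3-2, against 37.3 ± 4.64 FPKM in WT (SD, n = 4 each). These are 5.05, 5.72 and 5.50% of the WT mean. On the log2(FPKM + 1) scale the change from WT was −3.74, −3.62 and −3.65, each with an SE of 0.16. The pseudocount of 1 understates the change of a gene this low, since with 0.1 in its place the changes were −4.26, −4.09 and −4.13. In replicates 3 and 4 alone the changes were −3.92, −3.85 and −3.80, and in replicates 1 and 2 alone −3.56, −3.39 and −3.50. The change in double was smaller than the sum of the single-mutant changes, and double minus both single mutants plus WT gave 3.53 ± 0.22 (SE). That sum lies below the lowest value the scale allows, and the gene was chosen as low in all mutants. Nothing is therefore read from the 3.53 about how the alleles combine. In whole roots, fewer cells that express the gene and less RNA per cell cannot be told apart.

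The choice of AT5G24240 also used its low level in the mutants, so its differences among them are given as a description, with no test. Double minus mctp4-1 was −0.12 (95% interval −0.45 to 0.22), double minus mctp3-2 was −0.09 (−0.42 to 0.25) and mctp3-2 minus mctp4-1 was −0.03 (−0.37 to 0.30) on the log2(FPKM + 1) scale. Of all genes tested, 0.0624, 0.0572 and 0.0260% were called in these contrasts, and of the 9 members tested 0 were called in each, with 0 at an unadjusted p under 0.05. With the replicate number as a block the shares of all genes were 0.312, 0.275 and 0.0364%, and again 0 of 9 members were called. For AT5G24240 nothing is read from these counts. The mutant libraries did differ by replicate number: replicates 3 and 4 of the mutants had 1.23 to 2.03 FPKM (mean 1.66), and replicates 1 and 2 had 2.08 to 2.73 FPKM (mean 2.38), with no overlap. In WT the corresponding means were 37.6 and 37.0 FPKM.

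The genes beside AT5G24240 had overlapping levels in mutants and WT. AT5G24230, a lipase class 3-related gene on the opposite strand, overlaps the end of AT5G24240 by 49 bases, and its libraries ranged over 5.71 to 13.7 FPKM in mutants and 9.11 to 13.5 FPKM in WT. Its changes from WT were −0.18 in double, −0.00 in mctp4-1 and −0.18 in mctp3-2 (SE 0.21 each). AT5G24260, a prolyl oligopeptidase family gene 533 bases away, ranged over 15.2 to 25.7 FPKM in mutants and 16.2 to 23.4 FPKM in WT, with changes of 0.06, 0.07 and 0.17 (SE 0.16 each). Neither gene was called in a comparison with WT. The library kit keeps strand information, but whether the counting used it is not given in the sources used here, so fragments from the overlap of AT5G24230 and AT5G24240 cannot be assigned to either.

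The gamma-type genes were also compared by sequence, because a fragment that fits several genes can be counted for any of them. The nearest relatives by coding sequence in TAIR10.1 were AT1G64460, with 65.1% identical bases over the aligned length, and PI4K gamma4, with 64.4%. The other gamma-type genes shared 53.6 to 60.5%. The longest stretches that AT5G24240 has in common with these 2 genes are printed to show their length, from the RefSeq annotation of TAIR10.1 (the matrix was made on TAIR10), 5′ to 3′ in the direction of transcription, with the identical run in capitals and 10 coding bases on each side. All lie on the minus strand, at chr5:8231236-8231276 and chr2:19086867-19086907 for the first pair, and at chr5:8232023-8232065 and chr1:23944594-23944636 for the second.
AT5G24240: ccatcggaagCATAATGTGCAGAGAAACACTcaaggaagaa
PI4K gamma4: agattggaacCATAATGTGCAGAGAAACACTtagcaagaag
AT5G24240: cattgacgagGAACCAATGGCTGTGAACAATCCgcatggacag
AT1G64460: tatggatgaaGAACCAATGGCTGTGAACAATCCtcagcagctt

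The runs are 21 and 23 bases long. Whether fragments of relatives add to the mutant level of AT5G24240 was not tested. PI4K gamma7 and AT1G13640, a further gamma-type gene, are closer to each other, with 82.1% identity and a shared run of 35 bases. How fragments that fit several genes were assigned is not given in the sources used here, and its effect on the values of the gamma-type genes was not tested.

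Over the 16 libraries, the genes most like AT5G24240 in pattern were ranked by Pearson correlation of log2(FPKM + 1) among 19230 genes. AT4G08093, a transcribed pseudogene on chromosome 4, came first at 0.984. It had 0 to 0.224 FPKM in the 12 mutant libraries and 2.26 to 3.0 FPKM in the 4 WT libraries. AT4G08093 passed the filter on low values only through those 4 WT libraries. Its place in this ranking and in the count below therefore depends on the group where it is high. AT1G53860, which encodes a remorin family protein, followed at 0.883, with 1.14 to 2.51 FPKM in mutants and 3.45 to 4.14 FPKM in WT. The noncoding AT4G14548 (0.813), the GNS1/SUR4 membrane protein gene AT3G06470 (0.748) and the pseudogene AT3G42658 (0.723) were next. These correlations rest on the gap between the 12 mutant and 4 WT libraries and share its libraries, so they are given without a p. Of the 19239 genes tested, 4 (0.0208%) had all mutant libraries below all WT libraries: AT5G24240, AT4G08093, AT1G53860 and AT3G42658. A further 7 genes (0.0364%) had all of them above. How many genes would separate so without a genotype difference was not counted, and AT5G24240 was chosen as low in the mutants. Nothing is therefore read from these counts.

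**Figure D2:**
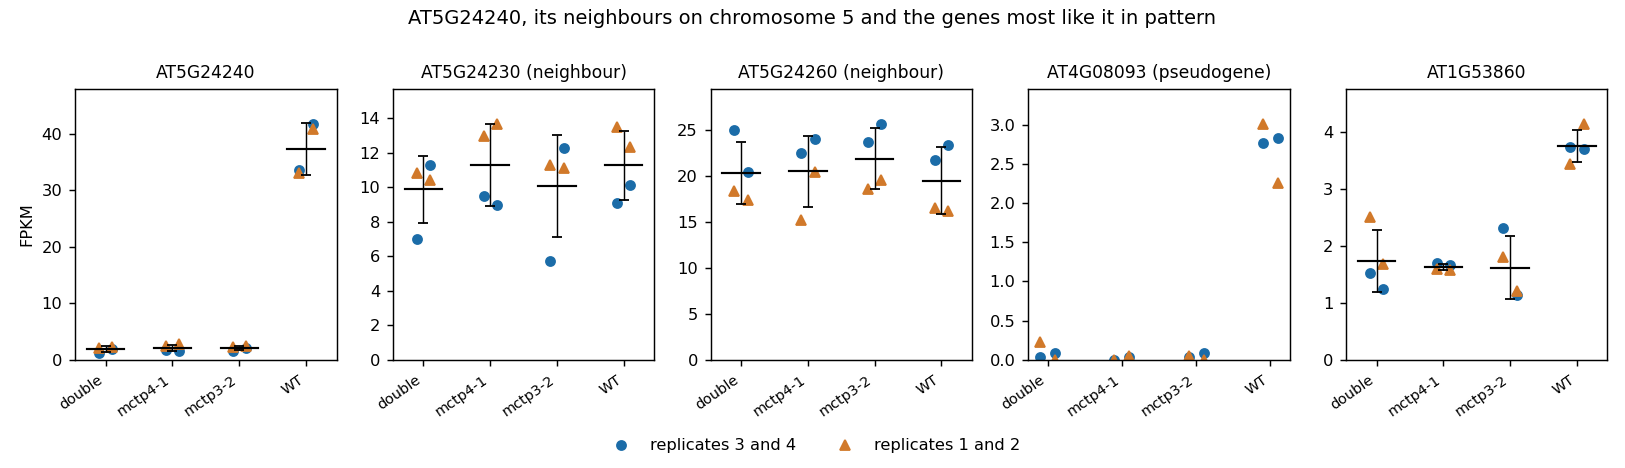
FPKM (vertical axes, from 0) by genotype and library of AT5G24240, its neighbours AT5G24230 and AT5G24260, and the genes ranked first and next for likeness, AT4G08093 and AT1G53860; black lines are the mean ± SD of 4 libraries, left out for AT4G08093, which has libraries at 0. The neighbours' mutant libraries (5.71 to 13.7 and 15.2 to 25.7 FPKM) span their WT libraries, whereas those of AT4G08093 and AT1G53860 lie below all WT libraries.

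The remaining gamma-type members had similar means in all genotypes. Several gamma-type kinases carry ubiquitin-like domains, and Arabidopsis PI4K gamma4 and gamma7 have been described as protein kinases. PI4K gamma7 averaged 35.2 ± 9.13 FPKM in double, 34.9 ± 9.36 FPKM in mctp4-1 and 35 ± 8.14 FPKM in mctp3-2, against 31.7 ± 12 FPKM in WT. PI4K gamma4 averaged 27.3 ± 4.44, 28 ± 3.55 and 29.1 ± 3.89 FPKM in the same mutants and 26.0 ± 3.91 FPKM in WT. AT1G26270 averaged 28.6 ± 5.47, 28.5 ± 5.10 and 29.2 ± 6.49 FPKM in them and 27.9 ± 10.4 FPKM in WT (SD, n = 4 each). For all 3 genes the mutant and WT libraries overlap over all replicates. In replicates 1 and 2 alone PI4K gamma7 had 25.3 to 30.0 FPKM in the mutants and 21.6 and 21.5 FPKM in WT, without overlap. In replicates 3 and 4 alone it overlapped, and PI4K gamma4 and AT1G26270 overlapped in either set.

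Summed over the 4 gamma-type members, the level was 92.9 ± 18.4 FPKM in double, 93.5 ± 17.0 FPKM in mctp4-1 and 95.3 ± 17.7 FPKM in mctp3-2, against 123 ± 27.5 FPKM in WT. AT5G24240 made up 2.15 ± 0.876%, 2.41 ± 0.979% and 2.26 ± 0.828% of that sum in the mutants and 31.2 ± 6.39% in WT. Without AT5G24240 the sums were 91.1 ± 18.8, 91.3 ± 17.5 and 93.3 ± 18.0 FPKM in the mutants and 85.5 ± 25.8 FPKM in WT, a difference smaller than the SD of any genotype. FPKM are scaled by length and can be added between genes, but the sums say nothing of protein or enzyme activity.

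**Figure D3:**
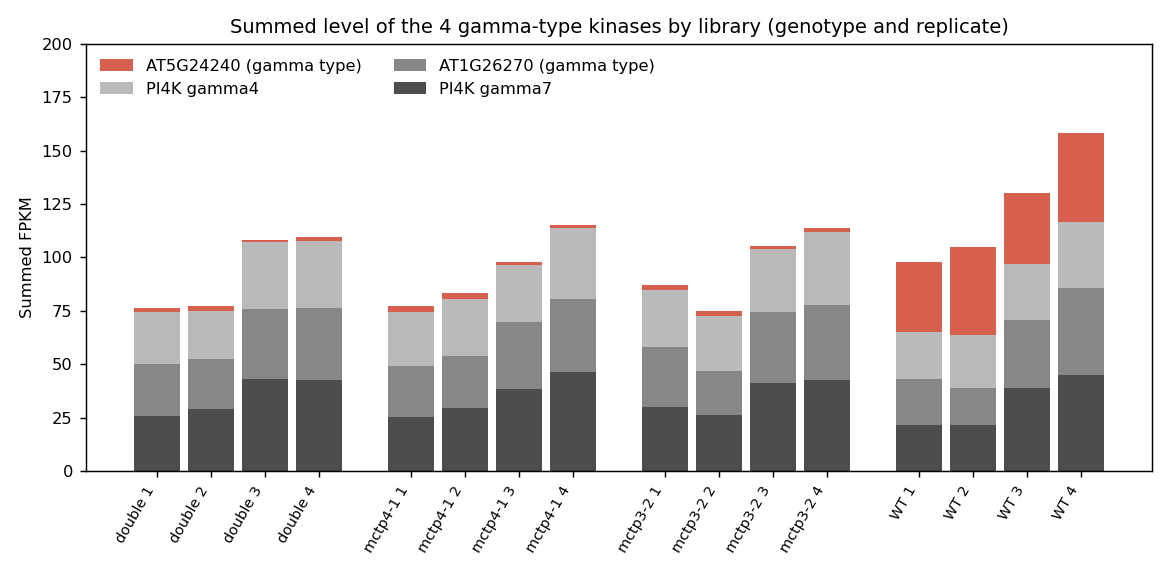
Stacked FPKM (vertical axis, from 0) of AT5G24240, PI4K gamma4, AT1G26270 and PI4K gamma7 in each of the 16 libraries, labelled by genotype and replicate. AT5G24240 is a thin cap in the 12 mutant bars and 25.8 to 39.1% of the 4 WT bars, and replicates 3 and 4 stand higher than replicates 1 and 2 in each genotype.

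PI4K alpha1 makes the PI4P of the plasma membrane and is anchored there by a protein complex. It averaged 18.4 ± 4.02 FPKM in double, 17.6 ± 4.51 FPKM in mctp4-1 and 19.4 ± 3.02 FPKM in mctp3-2, against 17.0 ± 5.37 FPKM in WT. PI4K beta1 and beta2 act together at the trans-Golgi network, where beta1 binds the GTPase RABA4B in root hairs. PI4K beta1 averaged 23.3 ± 5.86, 21.3 ± 4.94 and 24.4 ± 3.85 FPKM in double, mctp4-1 and mctp3-2, against 21.3 ± 6.89 FPKM in WT. PI4K beta2 was the lower of the pair, at 4.35 ± 1.38, 4.08 ± 0.932 and 4.71 ± 0.765 FPKM in these mutants, against 3.92 ± 1.12 FPKM in WT.

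SAC7, a PI4P phosphatase whose loss gives the short, bulging root hairs of rhd4, had the highest mean of the 10 members in every genotype. It averaged 45.6 ± 6.43 FPKM in double, 43.0 ± 6.28 FPKM in mctp4-1 and 46.5 ± 6.0 FPKM in mctp3-2, against 42.8 ± 6.79 FPKM in WT. SAC8 averaged 18.0 ± 1.07, 18.0 ± 2.09 and 16.6 ± 1.34 FPKM in these mutants and 17.4 ± 3.04 FPKM in WT. SAC6, known from flowers, was listed at 0 in all 12 mutant libraries and in 2 of the WT libraries, with 0.0327 and 0.0509 FPKM in WT replicates 1 and 4. At this level no difference was detectable, and SAC6 was the 1 member that did not pass the filter on low values. Together the 3 phosphatases summed to 63.6 ± 7.43, 61.0 ± 8.11 and 63.0 ± 7.31 FPKM in double, mctp4-1 and mctp3-2, against 60.2 ± 9.77 FPKM in WT.

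In order of mean level in WT, SAC7 was followed by AT5G24240, PI4K gamma7, AT1G26270, PI4K gamma4, PI4K beta1, SAC8, PI4K alpha1, PI4K beta2 and SAC6. Down to PI4K alpha1 no gap between neighbours in this order exceeded the larger of their SDs. The step from PI4K alpha1 to PI4K beta2 (13 FPKM) and the step from PI4K beta2 to SAC6 (3.90 FPKM) did. AT5G24240 was thus among the highest members in WT, and it ranked 9 of 10 in each mutant, below PI4K beta2 in all 12 libraries.

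Against WT, the 8 tested members other than AT5G24240 differed by −0.05 to 0.23 on the log2(FPKM + 1) scale. Their 95% intervals reached from −0.46 to 0.75, and with the replicate number as a block from −0.22 to 0.48. One of the 9 tested members, AT5G24240, was called in each of the comparisons double, mctp4-1 and mctp3-2 with WT, where 0.156, 0.0260 and 0.0312% of all genes were called. With the replicate block the shares of all genes were 0.541, 0.0260 and 0.0572%, and the count of members stayed at 1. Since this contrast chose the list, nothing is read from these counts. The values of the 8 genes depended on the replicates: in replicates 3 and 4 alone the median change was 0.041 for double, −0.028 for mctp4-1 and 0.019 for mctp3-2, with 5, 2 and 6 of 8 above 0. In replicates 1 and 2 alone it was 0.220, 0.171 and 0.317, with 8 of 8 above 0 in each, and 0 of these changes were called. Over all libraries 11521, 11667 and 12598 of the 19239 genes tested were above 0, and the share within each set was not counted. The 3 comparisons share their WT libraries and the 8 genes vary together, so the signs are not separate observations.

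**Figure D4:**
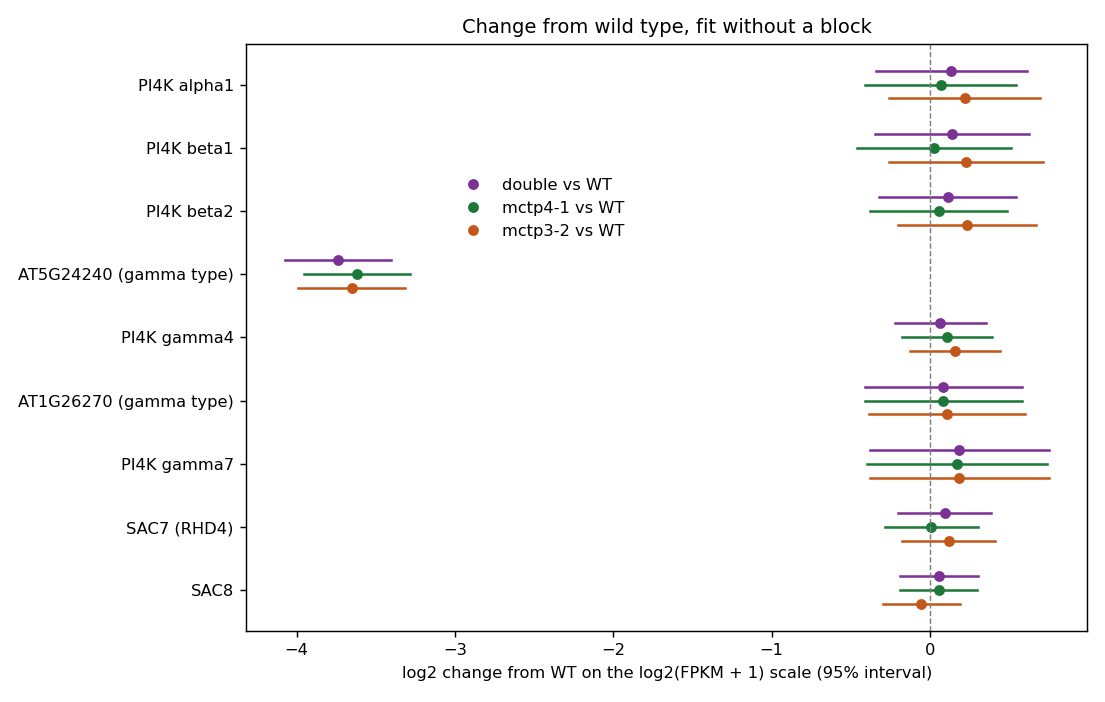
Log2 change from WT on the log2(FPKM + 1) scale (horizontal axis) of the 9 tested members in double, mctp4-1 and mctp3-2, with 95% intervals from the fit without a block. AT5G24240 lies at −3.74 to −3.62, and the intervals of the other 8 members all include 0.

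The replicate numbers gave the larger pattern in the other members, in a contrast that the list did not use. All 8 were higher in replicates 3 and 4 than in replicates 1 and 2 at an adjusted p under 0.05 in limma with genotype in the fit. Of all genes tested 44.4% were called, 27.9% higher and 16.6% lower. The split was itself seen in these libraries before this contrast was fitted to them. Its p-values therefore describe the size of the split in each gene and do not test whether the sets differ. PI4K gamma7 had 38.3 to 46.3 FPKM (median 42.7) in replicates 3 and 4 and 21.5 to 30.0 FPKM (median 25.9) in replicates 1 and 2 (n = 8 each). The difference was 0.68 ± 0.07 (SE) with an adjusted p of 9.32e-07, and the groups did not overlap. AT1G26270 had 31.3 to 40.6 FPKM (median 33.5) against 17.6 to 28 FPKM (median 23.7), with a difference of 0.56 ± 0.08 (adjusted p = 4.90e-05). PI4K alpha1 had 19.2 to 22.7 FPKM (median 21.7) against 11.8 to 18.1 FPKM (median 14.5), with a difference of 0.52 ± 0.08 (adjusted p = 1.43e-04). SAC7 had 45.6 to 52.7 FPKM (median 49.7) against 35.1 to 44.9 FPKM (median 38.7), with a difference of 0.33 ± 0.05 (adjusted p = 7.74e-05).

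In these 4 genes every library of replicates 3 and 4 stood above every library of replicates 1 and 2. PI4K beta1 (0.54 ± 0.08), PI4K beta2 (0.48 ± 0.08), PI4K gamma4 (0.29 ± 0.06) and SAC8 (0.23 ± 0.05) were also called higher, and in each of the 4 genotypes both libraries of replicates 3 and 4 lay above both of replicates 1 and 2 for all 8 members. The smallest such gap was in PI4K gamma4 of mctp4-1, where replicate 3 and replicate 2 were both at 26.7 FPKM after rounding. The shares of all genes that separate in these ways were not counted, so the separation is not read as particular to the members. AT5G24240 went the other way, at −0.26 ± 0.09 (adjusted p = 0.0294). That call was lost in 9 of the 16 fits that left out 1 library, with values of −0.31 to −0.21 and adjusted p up to 0.0668 (without double replicate 3). The others were double replicate 2, mctp4-1 replicates 1, 2, 3 and 4, mctp3-2 replicates 2 and 3, and WT replicate 3. The fit gave AT5G24240 a single difference over all genotypes. In the mutants its mean was 1.66 FPKM in replicates 3 and 4 and 2.38 FPKM in replicates 1 and 2. In WT these means were 37.6 and 37.0 FPKM, with no fall. The low mutant values also chose the gene, so nothing is read from this call. The relative depth of the libraries, a rough estimate, moved with the same split but overlapped. It was 1.13 to 1.65 in replicates 3 and 4 and 0.883 to 1.34 in replicates 1 and 2. The summed green tissue markers ranged over 92.8 to 250 FPKM in replicates 3 and 4 and 103 to 351 FPKM in replicates 1 and 2, and those of root hairs over 95.4 to 153 FPKM and 70.6 to 125 FPKM. Of the 5 root hair markers 2 were called higher by the limma test, RHD2 by 0.59 ± 0.07 and RSL4 by 0.46 ± 0.08. COBL9 at 0.19, EXPA7 at 0.15 and EXPA18, which went the other way at −0.23, were not called. Of the 4 green tissue markers 2 were called lower, LHCA1 at −0.72 ± 0.17 and PSBO1 at −0.54 ± 0.15. Of the 5 endodermis and stele markers 0 were called. After median of ratios scaling these counts were 2, 2 and 1, the last being VND7 at −0.28. Under that scaling the other green tissue markers, RBCS1A at −0.49 and CAB1 at 0.08, were not called. The part of the marked cell types in the result was not tested.

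Rescaling each library by the median of ratios moved the balance of all genes called in this contrast to 4107 higher and 4173 lower, against 5364 and 3187 as deposited. Under it the 8 members were still all called higher in limma, by 0.17 to 0.62 with adjusted p of at most 0.0119. AT5G24240 was called lower at −0.30 (adjusted p = 0.00971), a single value over all genotypes from which again nothing is read. Across the 16 libraries the 28 pairs among these 8 genes correlated at 0.639 to 0.981 (median 0.860). After the mean of each genotype and set of replicate numbers was subtracted, the range was −0.33 to 0.96 (median 0.46). AT5G24240 correlated with the 8 at −0.31 to −0.10. All pairs share libraries and depth, so these are descriptions.

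The wider pathway was read from 64 other genes of phosphoinositide turnover, of which 56 passed the filter. In each of the 3 comparisons with WT and each of the 3 comparisons between mutants, 0 of the 56 were called by limma, with or without the replicate block. Of all genes tested, 0.0260 to 0.156% were called without the block and 0.0260 to 0.541% with it. At such shares a list of 56 may hold 0 calls, so nothing is read from this count. At an unadjusted p under 0.05 there was 1 gene in double against WT, 0 in mctp4-1 and 0 in mctp3-2 (4, 1 and 4 with the block). Among all 19239 genes tested the numbers were 735, 242 and 355 (1694, 560 and 1218 with the block). Between mutants there were 0 of the 56 in double against mctp4-1, 1 in double against mctp3-2 and 0 in mctp3-2 against mctp4-1 (1, 2 and 3 with the block). Among all genes tested the numbers were 500, 562 and 193 (1216, 1277 and 483 with the block). The median change from WT of the 56 genes was 0.08 for double, 0.04 for mctp4-1 and 0.12 for mctp3-2, beside 0.03, 0.03 and 0.05 over all genes tested.

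The largest changes from WT in this list stayed small. In double they were RABA4C, a GTPase of secretory vesicles, at 0.26 ± 0.12 (SE), and PIP5K9, a PI4P 5-kinase, at 0.24 ± 0.20. In mctp4-1 they were RABA4C at 0.21 ± 0.12 and the phospholipase C gene PLC9 at 0.21 ± 0.15. In mctp3-2 they were FAB1D, of the family that makes phosphatidylinositol 3,5-bisphosphate, at 0.24 ± 0.14, and NPG1, a subunit of the PI4K alpha1 complex, at 0.24 ± 0.14. All 6 had an adjusted p above 0.99.

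By family, the 3 tested gamma-type genes outside the members had median changes from WT of −0.01 in double, 0.08 in mctp4-1 and 0.05 in mctp3-2. AT1G64460, the nearest relative of AT5G24240, had 18.9 to 30.2 FPKM in double, 17.9 to 26.1 FPKM in mctp4-1 and 20.7 to 37.1 FPKM in mctp3-2, against 21.8 to 26.3 FPKM in WT, so its genotypes overlap. The 6 other SAC domain genes, which include phosphatases of phosphatidylinositol 3,5-bisphosphate, had medians of 0.09, 0.04 and 0.15 in double, mctp4-1 and mctp3-2. The 9 genes listed for the PI4K alpha1 complex had 0.12, 0.05 and 0.13.

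Between replicates 3 and 4 and replicates 1 and 2, 29 of the 56 genes were higher and 5 lower, beside 27.9 and 16.6% of all genes. After median of ratios scaling the counts were 21 higher and 7 lower, with 8 calls lost and 2 gained. Of 9 PI4P 5-kinases 6 were higher (PIP5K2, PIP5K3, PIP5K4, PIP5K6, PIP5K8 and PIP5K9) and 0 lower. After the scaling 4 were higher, since PIP5K6 (0.20, adjusted p = 0.0529) and PIP5K8 (0.12, adjusted p = 0.105) lost the limma call, and PIP5K5 was called lower at −0.29. PIP5K3, which acts in root hair tips, was higher by 0.53 ± 0.10 (SE), and PIP5K9 had 11.6 to 14.7 FPKM in replicates 3 and 4 and 7.46 to 11 FPKM in replicates 1 and 2. Of 8 phospholipases C, PLC2 and PLC4 were higher and PLC1, PLC5 and PLC9 lower. PLC2, the main phospholipase C of vegetative tissue, had 32.7 to 38.2 FPKM against 22.4 to 27.9 FPKM (0.51 ± 0.05). PLC1 had 3.33 to 4.82 FPKM in replicates 3 and 4 and 5.49 to 8.49 FPKM in replicates 1 and 2, the largest difference of the list at −0.72 ± 0.07 (adjusted p = 2.26e-06).

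**Figure D5:**
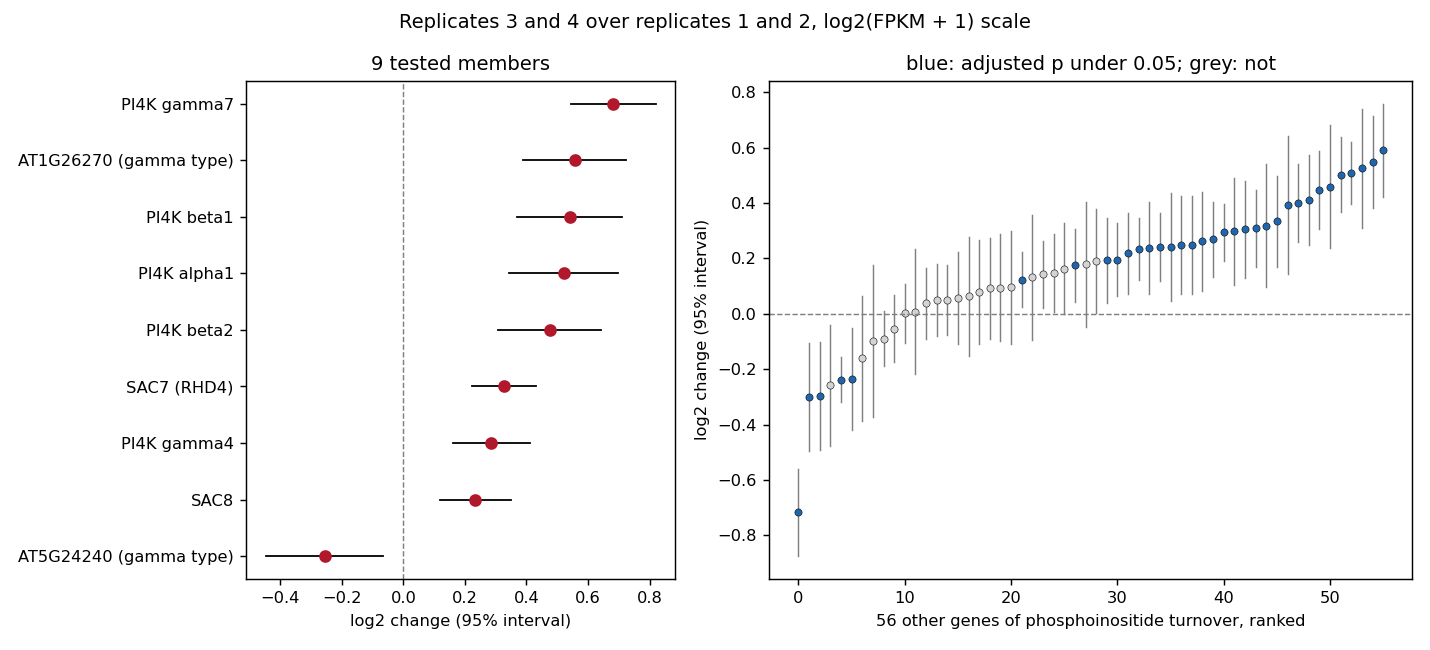
Left, log2 difference of replicates 3 and 4 over replicates 1 and 2 on the log2(FPKM + 1) scale with 95% intervals for the 9 tested members. Right, the same for the 56 other genes of phosphoinositide turnover in rank order, blue where the adjusted p is under 0.05. On the left 8 members lie above 0 and AT5G24240 below it, a fall seen in its mutant mean and not in its WT mean. The right panel runs from −0.72 (PLC1) to 0.59 (AT1G13640).

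The gamma-type AT1G13640 was higher in replicates 3 and 4 by 0.59 ± 0.08 (SE) and AT1G64460 was lower, at −0.30 ± 0.09. Of 6 SAC domain genes 5 were higher (SAC1, SAC2, SAC4, SAC5 and SAC9), and 4 after median of ratios scaling, where SAC4 lost the limma call (0.14, adjusted p = 0.0534). Of the 9 genes of the PI4K alpha1 list 4 were higher: NPG1, AT5G21080, AT1G05960 and AT5G26850, the last by 0.55 ± 0.08. After the scaling NPG1 lost the limma call (0.18, adjusted p = 0.0727) and HYC2 was called lower at −0.15, which left 3 higher and 1 lower. RABA4B, the partner of PI4K beta1, was lower at −0.24 ± 0.04, with 67.6 to 72.8 FPKM against 76.8 to 89.0 FPKM and no overlap. The share of all genes without overlap was not counted. The synthase PIS1 was higher by 0.12 ± 0.05, a limma call lost after the scaling (0.06, adjusted p = 0.268). Of 7 inositol polyphosphate 5-phosphatases 4 were higher (CVP2, FRA3, 5PTASE12 and 5PTASE13), by 0.24 to 0.45. After the scaling 3 were called, without 5PTASE13 (0.19, adjusted p = 0.0926 in limma). Of 9 genes of the 3-phosphoinositide branch 6 were higher (VPS34, FAB1A, FAB1B, FAB1C, MTM2 and PTEN2A), by 0.19 to 0.33. After the scaling 4 were called, without FAB1A (0.19, adjusted p = 0.0612 in limma) and MTM2 (0.13, adjusted p = 0.114). The counts by family stand beside 27.9% of all genes higher and 16.6% lower as deposited. After the scaling 4107 of the 19239 genes tested were higher and 4173 lower. Each family is small, so no family is read as standing out.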

How the data were processed

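Per the submitters' processing notes, HISAT2, Cufflinks and the TAIR10 build were used. The sources used here give no versions, parameters or strand settings. The authors deposited FPKM per gene, already scaled for library size and gene length. Values under 1e-06 were taken as 0, and 0 columns were left out. Only 20.4 to 39.3% of low genes had values on whole-fragment steps (FPKM under 0.6, tolerance 0.05 on the log2 scale), so no read counts were recovered and no counting intervals are given. Relative depth was taken from the most common ratio of these low values to those of WT replicate 1, and is therefore a rough estimate. The highest estimate, 1.65 in mctp4-1 replicate 4, had 21.4% of low genes on the steps. Log2(FPKM + 1) of the 19239 genes with at least 1 FPKM in at least 4 of 16 libraries was fitted with limma 3.58.1 (R 4.3.3) over all libraries (trend and robust options on). P-values are 2-sided and adjusted by Benjamini-Hochberg over all genes, with calls under 0.05. The fit without a block was run for double against WT on simulated data with known changes. The simulated libraries were independent and held no split between the sets of replicate numbers. It therefore does not test the replicate contrast or the block.

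The members and lists were chosen with earlier results of these data known. Named genes are the members, other pathway genes that were called or had the 2 largest changes from WT, the 5 genes most like AT5G24240, its neighbours, and MCTP3 and MCTP4. PIP5K10 and the other genes below the filter were not tested. Same-numbered libraries of different genotypes correlated at 0.203 to 0.556 after genotype means were subtracted (24 pairs), and the replicate number served as a block in an alternative fit. Libraries with another number in the same set (1 and 2, or 3 and 4) did so at 0.185 to 0.524. Those of opposite sets correlated at −0.518 to −0.186 (48 pairs). The values thus show the split between the sets, while a pairing by single number is given neither by them nor by the labels. Positions and coding sequences are from TAIR10.1, read with Python 3.11.15 and aligned with Biopython 1.88, and no coordinates were converted. Alternatives were the pseudocount, the filter, median of ratios scaling, the replicate block, each library left out, and each set of replicate numbers alone.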

Additional observations from a re-analysis of the deposited data

How the results depend on the processing

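The replicate block, which pairs libraries by replicate number, raised the number of genes called to 104 in double against WT (30 without it), 11 in mctp3-2 against WT (6), 60 in double against mctp4-1 (12) and 53 in double against mctp3-2 (11). It changed no call of a member or of another pathway gene. Leaving out 1 library at a time gave 18 to 28 genes in double against WT (18 without double replicate 3), 7 to 14 in double against mctp4-1 (7 without mctp4-1 replicate 1, and also without replicate 4) and 7 to 13 in double against mctp3-2 (7 without mctp3-2 replicate 2). The change of AT5G24240 from WT was −4.26, −4.09 and −4.13 in double, mctp4-1 and mctp3-2 with a pseudocount of 0.1, and that of mctp4-1 was −3.85 in replicates 3 and 4 alone and −3.39 in replicates 1 and 2 alone. Leaving out 1 library gave −3.82 to −3.62, −3.71 to −3.54 and −3.72 to −3.56. Median of ratios scaling shifted the calls in double against WT from 16 of 30 higher to 10 of 24. The sets of replicates 3 and 4 and of 1 and 2 taken alone were planned for AT5G24240 against WT and were chosen after seeing the data for the other members and contrasts. Across the other settings, 312 of 312 values of the other members kept their side of the threshold, as did 896 of 896 with 1 library left out; SAC6 was not fitted. The cause of the shifts was not tested. Absolute depth is unknown, so what depth limits could not be set for AT5G24240 in mutants or for SAC6.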
